A study of Mus musculus with 85 samples.

Results

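The genes described here are 38 mouse genes of the amino acid response that the transcription factor ATF4 governs: Atf4 itself, 2 of the kinases and a phosphatase subunit of the pathway, partner and downstream transcription factors, and target genes for amino acid synthesis, amino acid transport, tRNA charging and growth control. They were taken by symbol from the 53877 rows that the deposited expression table holds once rows with an equal symbol are summed. The rule that finds their rows uses no measured value, though the list itself was drawn up with earlier results of these data known. All 38 had a row. Yars lay on 2 rows, which were summed, and 5 members lay in loci that join neighbouring genes, so that their values also hold Mief1 (Atf4), Snx12 (Slc7a3), Celsr2 and 5330417C22Rik (Sars), Mbd6 (Mars) and Gm35484 (Cebpg). Of the 38 members, 35 reached 1 FPKM in at least 10 libraries and were tested, and Trib3, Stc2 and Eif2ak3 did not.

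Total RNA of the hippocampus was sequenced from 85 mice aged 8 months, with 1 library per mouse. Control mice were C57BL/6J, and AD mice were of a transgenic strain whose transgenes are driven by the Prnp (prion protein) promoter and which forms amyloid plaques. Mice of each sex and strain ate a standard feed or a methionine restricted feed (MR), and its methionine content and duration are not stated in the labels. Males on standard feed were MWT (control, n = 11) and MAD (AD, n = 11), males on restricted feed MWTMR (n = 10) and MADMR (n = 11), females on standard feed FWT (n = 10) and FAD (n = 11), and females on restricted feed FWTMR (n = 10) and FADMR (n = 11). The study's subject, by its title, is methionine restriction and cognition in Alzheimer's disease, and the 8 groups allow genotype, feed and sex to be compared.

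When uncharged tRNA builds up, the kinase GCN2, encoded by Eif2ak4, phosphorylates the initiation factor eIF2, and PERK, encoded by Eif2ak3, does the same when proteins misfold in the endoplasmic reticulum. Translation then slows in general, while the Atf4 messenger is translated more, so that much of the control of ATF4 does not show in its RNA level. ATF4 binds with C/EBP family partners to response elements near genes for asparagine and serine synthesis, amino acid carriers and aminoacyl-tRNA synthetases. In rodent liver, feeds low in methionine are known to raise several of these genes.

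Read depth is unknown because the deposited values are FPKM, a unit scaled by transcript length and by the number of mapped fragments. FPKM summed to 939248 to 1066927 per library, and libraries from females held more rows at or above 1 FPKM (19477 ± 431, SD, n = 42) than those from males (18812 ± 464, SD, n = 43). The Prnp locus, whose promoter drives the transgenes, ran from 922 to 1462 scaled FPKM in 44 AD mice and from 252 to 409 in 41 control mice, without overlap. Neuron markers, from a list of 5 with none under the filter, summed to 1385 to 4001 scaled FPKM over all libraries. In 3 libraries (FAD replicate 5, FADMR replicate 10 and FWTMR replicate 5) the median correlation with the other libraries was lowest, at 0.911 to 0.919 against a median of 0.952. Levels are given below as FPKM after median-of-ratios scaling, and differences as log2(scaled FPKM + 1) with their standard error (SE) and the limma p-value adjusted by Benjamini-Hochberg over the 21294 rows tested. In tissue RNA, fewer cells of a type and less RNA per cell cannot be told apart. A gene is called where its adjusted p is under 0.05.

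The ATF4 response element, in the form of the letters TGATGNAA or, on the other strand, TTNCATCA, was searched in RefSeq promoter windows of build GRCm38.p6 that run from 250 bases before to 50 bases after the annotated start. Windows were at hand for 31 of the 38 members, and 12 of them (38.7%) held the letters, against 1219 of 27025 genes (4.51%) in the whole table. These 12 were Asns, Chac1, Trib3, Slc7a11, Slc1a4, Nupr1, Vldlr and the synthetase genes Aars, Gars, Iars, Tars and Yars. The windows of Atf4, Sesn2, Ddit3, Ddit4, Psat1 and Phgdh did not hold these letters. The members were listed as genes of this response, so the share among them is not independent of how the list was made and is no test. A match is a description of the sequence and not a binding site. Shown here, 5′ to 3′ along the gene with the letters in capitals, are 6 stretches of members on which later results turn: the asparagine synthetase gene, the glutathione-degrading enzyme gene, the cystine carrier gene, 2 synthetase genes that moved with Asns, and the stress gene Nupr1. The stretches lie at chr6:7693185-7693272, minus strand (Asns), chr2:119351009-119351096, plus strand (Chac1), chr3:50443613-50443719, minus strand (Slc7a11), chr8:111033690-111033891, plus strand (Aars), chr13:49682097-49682179, plus strand (Iars) and chr7:126625533-126625620, minus strand (Nupr1).
Asns: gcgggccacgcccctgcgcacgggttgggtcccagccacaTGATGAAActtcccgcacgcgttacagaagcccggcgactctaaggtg
Chac1: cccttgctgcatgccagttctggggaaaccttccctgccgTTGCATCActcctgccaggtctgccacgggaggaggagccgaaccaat
Slc7a11: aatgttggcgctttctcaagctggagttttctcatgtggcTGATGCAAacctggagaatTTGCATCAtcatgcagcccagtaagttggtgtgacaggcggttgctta
Aars: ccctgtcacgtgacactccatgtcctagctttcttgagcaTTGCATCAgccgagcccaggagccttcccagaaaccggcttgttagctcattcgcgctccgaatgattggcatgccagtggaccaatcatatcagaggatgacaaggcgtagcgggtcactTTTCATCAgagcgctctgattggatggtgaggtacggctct
Iars: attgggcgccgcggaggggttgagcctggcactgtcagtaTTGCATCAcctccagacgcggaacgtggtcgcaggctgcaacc
Nupr1: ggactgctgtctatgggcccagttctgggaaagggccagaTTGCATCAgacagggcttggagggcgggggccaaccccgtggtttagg
In Slc7a11 and Aars the letters occur at 2 places, which do not overlap. In Asns they begin 23 bases before the annotated start, in Chac1 193 bases and in Nupr1 110 bases before it, and in Iars at base 8 of the transcript.

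Per unit of length, 4 synthetase genes had the highest levels of the members, and stress genes and a kinase gene had the lowest. Median levels over the 85 mice were 517 FPKM for Wars, 319.6 for Lars, 242 for the Sars locus, 163 for Nars, 148 for Psph and 109.9 for Phgdh. At the other end stood the Cebpg locus with 2.71 FPKM, Nupr1 with 1.06 and, under the filter, Stc2 with 0.393, Eif2ak3 with 0.357 and Trib3 with 0.309. Neighbours in this order, such as Nars and Psph, had overlapping ranges over mice (128 to 196 and 111 to 191 FPKM). The within-group SD on the log2 scale ran from 0.091 for Eprs to 1.07 for Slc6a9, against a median of 0.288 over all rows tested.

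**Figure D1:**
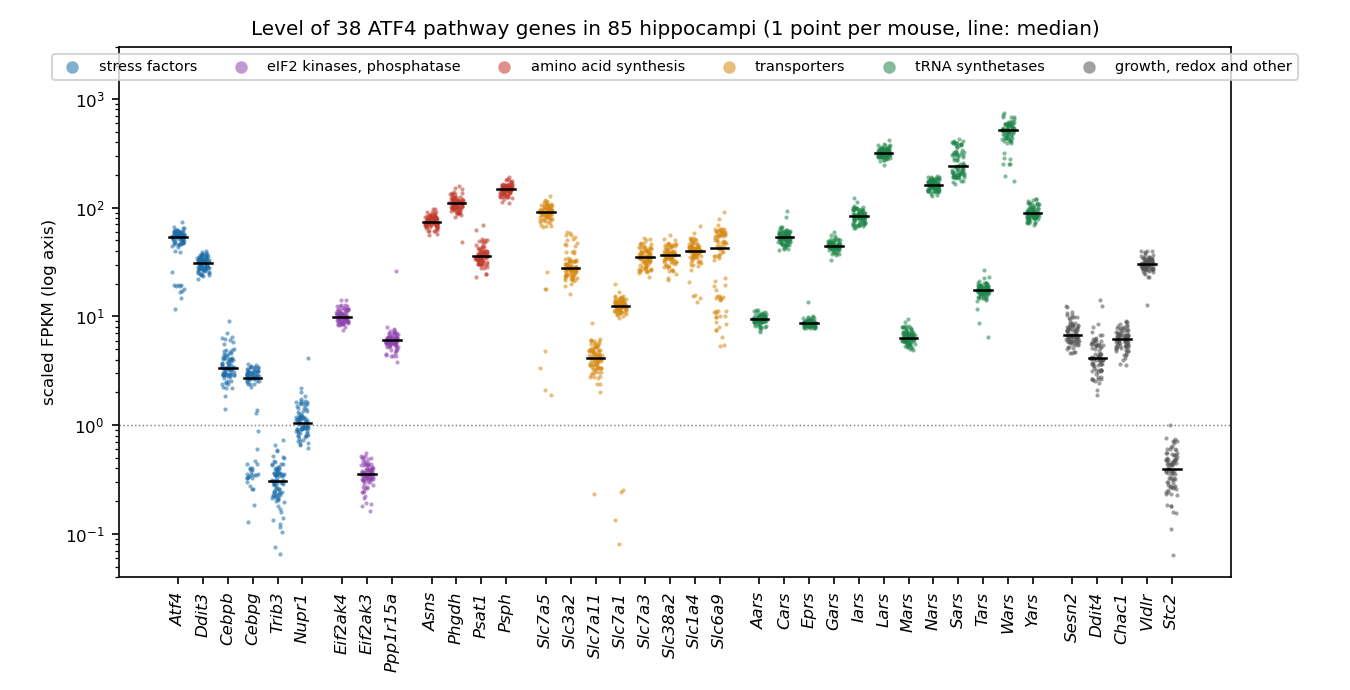
Scaled FPKM (log axis) of the 38 genes in 85 hippocampi, 1 point per mouse, with the median as a line, genes grouped and coloured by role, and 1 FPKM as a dotted line. Medians run from 0.309 for Trib3 to 517 for Wars, and Atf4, Cebpg, Slc7a5, Slc7a1 and Slc6a9 have libraries far below their median.

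Across the comparisons of genotype and feed, 1 of the 35 tested members was called. With genotype averaged over sex and feed, Sesn2 was lower in AD mice, and 1.91% of all rows were called (0.573% as lower). The members' median difference there was 0.008, against -0.006 over all rows. With feed averaged over sex and genotype no member was called, against 0.197% of all rows. By unadjusted p under 0.05, 3 members passed in the limma fit (8.57%, against 7.66% of all rows), and the smallest adjusted p of a member was 0.503. The members' median feed difference was 0.003, with 18 members above 0 and 17 below. With sex averaged, 8 members were called, 3 higher and 5 lower in females, against 50.4% of all rows (31.6% higher and 18.7% lower). A share of 8 in 35 lies below that background, and is read as no result about the members. Cell markers also differed by sex: all 6 tested of plaque microglia were higher in females (median difference 0.277) and all 5 tested of endothelium lower (-0.193). In AD mice the plaque microglia sums had medians of 67.5 in FAD and 40.7 in MAD, and 68.4 in FADMR and 43.7 in MADMR. In control mice the medians lay closer, at 27.8 in FWT and 29.9 in MWT, and 30.35 in FWTMR and 27.7 in MWTMR. Higher in females were also 4 of 6 striatum markers, 2 of 4 of meninges and 1 of 6 of choroid plexus. Lower were 4 of 7 immediate early genes, 2 of 6 microglia, 2 of 7 astrocyte and 2 of 7 glucocorticoid-induced genes, and 1 each of 2 oligodendrocyte precursor and 4 thalamus markers. Of 5 neuron markers 1 was higher and 2 were lower, and of those of oligodendrocytes, dentate gyrus and CA1 none was called. Their part in the members' sex differences was not tested.

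No member was called within a single sex and feed or in an interaction. Of all rows, genotype called 0.0611% in males on standard feed, 0.427% in females on standard feed, 0.103% in males on restricted feed and 1.39% in females on restricted feed. Members at an unadjusted limma p under 0.05 numbered 4, 4, 2 and 3 in these 4 comparisons, where 7.32%, 11.5%, 9.38% and 14.7% of all rows stood. Feed called 0% of rows in control males, 0.0141% in AD males, 0.0611% in control females and 0.00939% in AD females. The members at an unadjusted p under 0.05 numbered 1, 3, 1 and 1, where 7.01%, 6.34%, 7.31% and 6.6% of all rows stood. For the interactions, 0.0704% of rows were called for genotype by sex, 0.0047% for feed by genotype and 0% for feed by sex. At an unadjusted p under 0.05 stood 8, 0 and 5 members, with 19.9%, 5.18% and 9.57% of all rows.

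**Figure D2:**
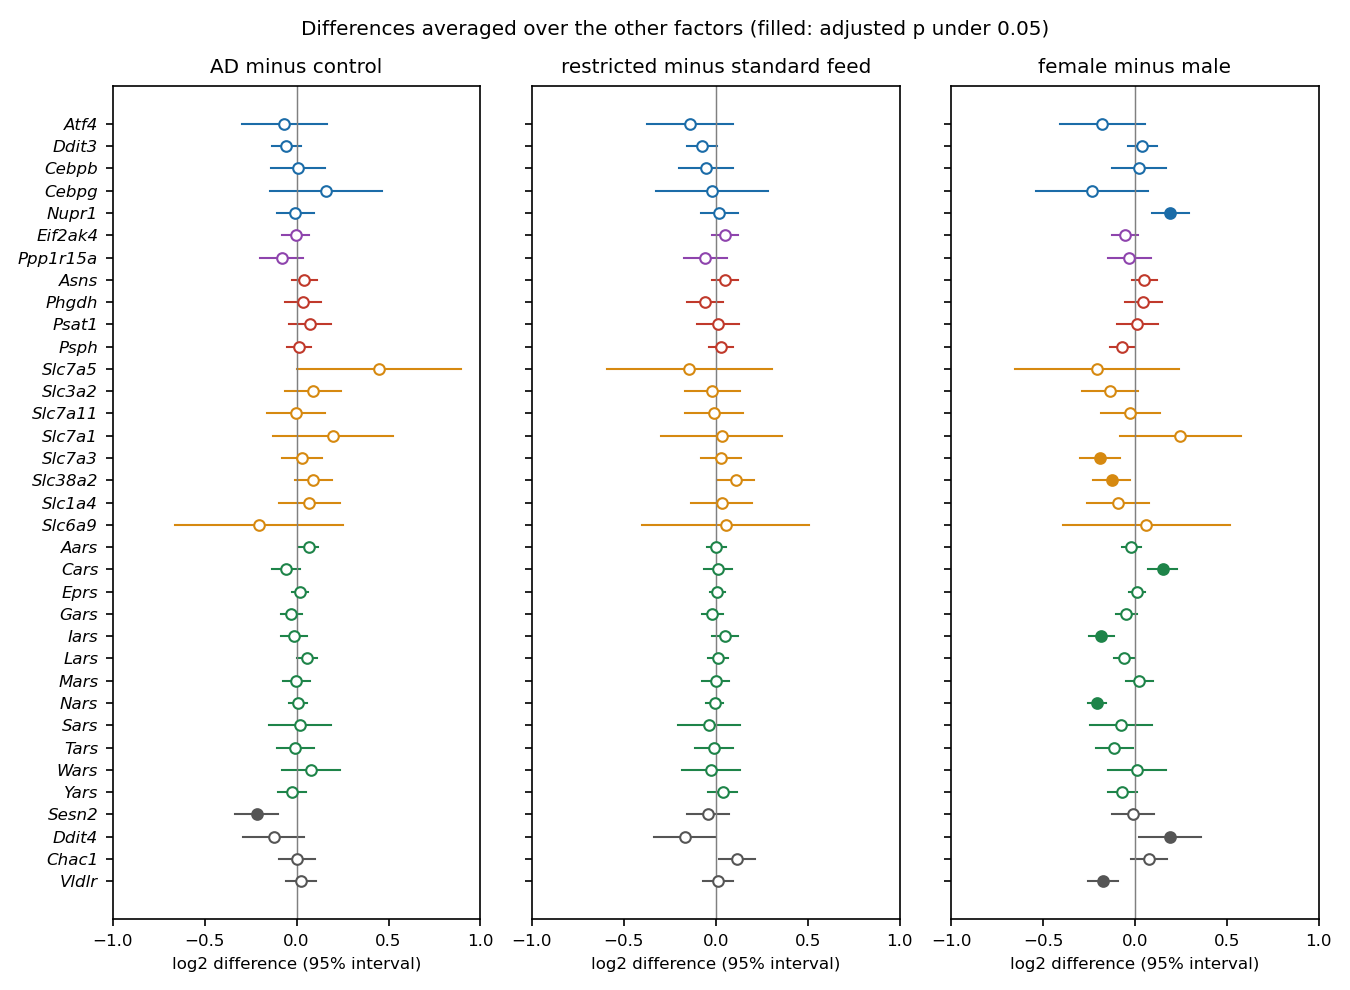
Log2 differences of the 35 tested members with 95% intervals, for AD minus control, restricted minus standard feed and female minus male, each averaged over the other factors; colours mark roles and filled points an adjusted p under 0.05. Sesn2 at -0.22 is the 1 filled point for genotype, none is filled for feed and 8 are filled for sex.

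Sesn2 (chr4:132492804-132510456, build GRCm38.p6) encodes sestrin 2, a stress-induced leucine sensor that restrains the growth kinase complex mTORC1. In males it ran from 5.85 to 10.4 with a median of 7.51 in MWT and from 4.74 to 10.9 with a median of 6.596 in MAD. On restricted feed the range was from 4.73 to 10.4 with a median of 7.88 in MWTMR and from 4.598 to 9.903 with a median of 6.39 in MADMR. The male ranges overlapped, with the median highest in MWTMR and lowest in MADMR. In females it ran from 5.18 to 12.2 with a median of 7.99 in FWT and from 5.52 to 7.75 with a median of 6.47 in FAD. With methionine restricted it ran from 6.204 to 12.5 with a median of 8 in FWTMR and from 4.57 to 8.35 with a median of 5.91 in FADMR. In each sex and feed the AD group's median was below that of its control group, and the ranges overlapped. Over all 44 AD mice the level was 6.58 ± 1.39 FPKM, and in 41 controls it was 7.85 ± 1.75 (SD). The averaged difference was -0.22 (SE 0.058, adjusted p = 0.02404), with 39 of 44 AD mice below the control median. Within the 4 pairs of groups the differences were -0.13 in males and -0.21 in females on standard feed, and -0.17 in males and -0.35 in females on restricted feed, none called (adjusted p of 0.113 to 0.896). With feed, Sesn2 differed by -0.044 (SE 0.058, adjusted p = 0.932). Without the 3 libraries of lowest correlation the genotype difference was -0.19 (adjusted p = 0.0555), and with covariates for the mean markers of 4 neighbouring tissues (meninges, striatum, thalamus and choroid plexus) it was -0.16 (adjusted p = 0.255), so that the call was lost in both.

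Markers of other cells moved with genotype beside Sesn2. All 6 tested markers of plaque microglia, out of 7 listed, were higher in AD mice (median difference 0.815). In males the list summed to 22.9 to 33.2 scaled FPKM in MWT, 33.6 to 58.6 in MAD, 21.9 to 30.1 in MWTMR and 36.5 to 86.8 in MADMR. In females it summed to 26.02 to 35.96 in FWT, 48.7 to 110 in FAD, 22.8 to 36.2 in FWTMR and 49.1 to 233 in FADMR. Across libraries, 3 of the 7 markers, Itgax under the filter among them, were at 0 in at least 1 library. Of the striatum markers, genes of the tissue that lies near the hippocampus at dissection, 1 of 6 tested was higher in AD mice, and none of the 7 listed was at 0 in any library. They summed to 30 to 89.8 in MWT, 26.9 to 105 in MAD, 27.5 to 98.7 in MWTMR and 27 to 98.4 in MADMR. In the female groups the sums were 30.98 to 122 in FWT, 30.8 to 90.6 in FAD, 30.1 to 99.9 in FWTMR and 39.8 to 145 in FADMR, and the ranges of all 8 groups overlapped. Within groups, Sesn2 correlated negatively with the mean of the striatum markers (Pearson's r = -0.315, adjusted permutation p = 0.048, and Spearman's rho = -0.325, adjusted p = 0.037). Without the 2 mice farthest in Sesn2 itself r was -0.301, and mice far out in the marker were not left out. Of the general microglia markers 3 of 6 were higher in AD mice (median difference 0.258), and of the astrocyte markers 2 of 7 (0.148). Astrocyte sums had medians of 2148 in MWT and 3063 in MAD, 2049 in MWTMR and 2869 in MADMR, 2125 in FWT and 2974 in FAD, and 1938 in FWTMR and 2994 in FADMR, with overlapping ranges in each pair. Microglia sums ran from 16.8 to 51.03 over the control groups and from 19.9 to 61.3 over the AD groups, and no marker of either list was at 0 in any library. With genotype averaged, no marker of the other 11 lists was called. In females on standard feed, 1 of 7 tested immediate early genes was called as lower in AD mice. The part of the marked cells in the Sesn2 difference was not tested beyond the fit with covariates.

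Ddit4 encodes REDD1, a stress and glucocorticoid-induced inhibitor of mTORC1. It ran from 2.12 to 5.93 with a median of 3.95 in MWT and from 3.597 to 14.01 with a median of 4.05 in MAD. Under restriction the values ran from 2.77 to 6.22 with a median of 4.47 in MWTMR and from 1.903 to 6.75 with a median of 3.15 in MADMR. Male mice of the 4 groups overlapped, and the median was lowest in MADMR and highest in MWTMR. Among females it ran from 3.94 to 12.5 with a median of 5.28 in FWT and from 3.21 to 6.27 with a median of 4.45 in FAD. The restricted groups ran from 2.58 to 7.13 with a median of 4.75 in FWTMR and from 2.74 to 5.93 with a median of 4.07 in FADMR. The highest library, at 14.01 FPKM, was MAD replicate 11, and the lowest group median was that of MADMR. That library was also the highest of all 85 for Ppp1r15a (26.3 FPKM, next 7.95), Atf4 (73.4, next 66.05) and Slc38a2 (56.4, next 51.4). Its immediate early genes summed to 1959 scaled FPKM, and the next library's to 302.5. Without it Ddit4 differed by 0.23 with sex (adjusted p = 0.0115) and Sesn2 by -0.23 with genotype (adjusted p = 0.00981). The level was higher in females, by 0.19 (SE 0.084, adjusted p = 0.04996), a call at the edge of the threshold that was lost when any 1 of 54 libraries was left out, without the 3 libraries of lowest correlation (adjusted p = 0.0669) and under 2 other filters (adjusted p of 0.0514 and 0.0754). Differences with genotype, -0.13 (SE 0.084, adjusted p = 0.523), and with feed, -0.17 (SE 0.084, adjusted p = 0.641), were not called.

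Chac1 encodes an enzyme that degrades glutathione and is among the genes most readily induced through ATF4. Its level ran from 3.62 to 8.904 with a median of 6.68 in MWT and from 3.59 to 6.63 with a median of 5.296 in MAD. Restricted mice ranged from 5.08 to 8.94 with a median of 5.9 in MWTMR and from 4.38 to 9.15 with a median of 6.12 in MADMR. Among males MWT had the highest median and MAD the lowest, and the ranges overlapped. For females the range was from 4.104 to 7.75 with a median of 5.33 in FWT and from 5.38 to 8.02 with a median of 6.67 in FAD. Levels on restricted feed ran from 4.78 to 8.53 with a median of 7.002 in FWTMR and from 5.59 to 8.08 with a median of 6.57 in FADMR. The group medians lay close together, between 5.296 in MAD and 7.002 in FWTMR, and all ranges overlapped. With feed the averaged difference was 0.12 (SE 0.0496, adjusted p = 0.503), with 27 of 42 restricted mice above the standard median, and in control females it was 0.31 (SE 0.102, adjusted p = 0.313). Neither was called. Genotype gave 0.0008 (SE 0.0496, adjusted p = 0.997), an interval of -0.10 to 0.10.

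Vldlr, the very low density lipoprotein receptor gene, which also serves reelin signalling in neurons, ran from 25.8 to 40.2 with a median of 29.1 in MWT and from 26.99 to 39.5 with a median of 32.8 in MAD. Mice on restricted feed ranged from 24.4 to 38.1 with a median of 33.8 in MWTMR and from 29.2 to 40.2 with a median of 34.2 in MADMR. Of the male groups, MADMR had the highest and MWT the lowest median, with overlapping ranges. In females it ran from 27.5 to 32.7 with a median of 29.02 in FWT and from 23.2 to 33.9 with a median of 30.2 in FAD. For restricted feed the range was from 26.8 to 31.5 with a median of 28.9 in FWTMR and from 12.8 to 33.1 with a median of 28.1 in FADMR. It was lower in females, with a difference of -0.17 (SE 0.041, adjusted p = 3.00e-04), and 40 of 42 females were below the male median. Stc2, which encodes the secreted glycoprotein stanniocalcin 2, stayed at 0.0633 to 1.004 FPKM in the 85 libraries and was not tested.

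**Figure D3:**
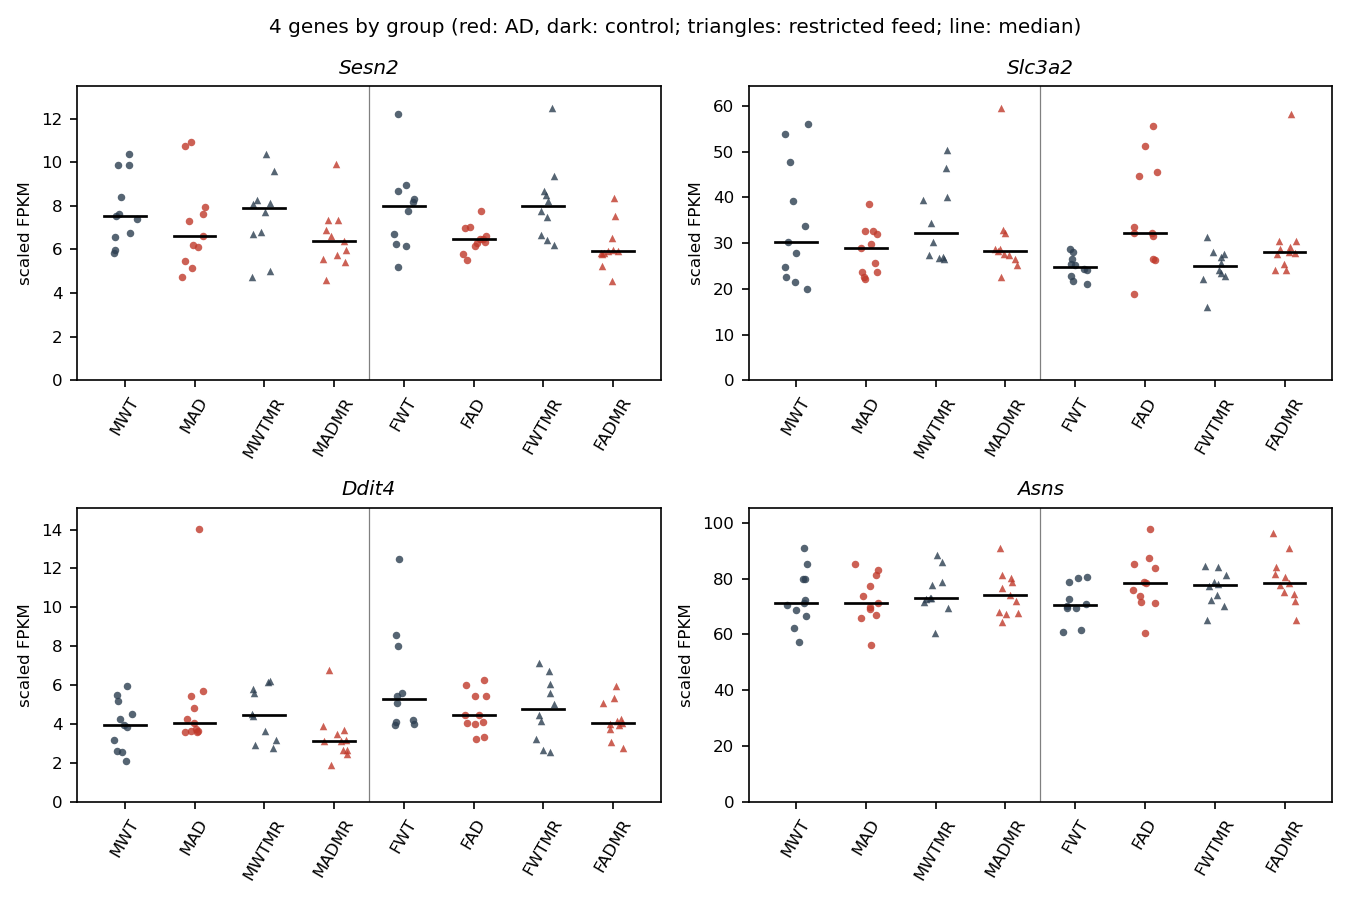
Scaled FPKM of Sesn2, Slc3a2, Ddit4 and Asns in each mouse of the 8 groups (axes from 0), males left of the grey line and females right of it, with AD in red, restricted feed as triangles and the median as a line. Sesn2 medians are 5.91 to 6.596 in AD groups and 7.51 to 8 in control groups with overlapping points, and Slc3a2 in females has medians of 32.2 in FAD and 24.9 in FWT.

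Among the regulators, no genotype or feed difference was called. The Atf4 locus (chr15:80255184-80257545 for the Atf4 gene) ran from 45.1 to 64.5 with a median of 59.7 in MWT and from 18.9 to 73.4 with a median of 57.99 in MAD. In the restricted groups it ran from 19.6 to 57.3 with a median of 53.3 in MWTMR and from 16.8 to 65.3 with a median of 46.2 in MADMR. These 4 ranges overlapped, and medians lay highest in MWT and lowest in MADMR. In the female groups it ran from 14.8 to 58.7 with a median of 53.5 in FWT and from 18.9 to 61.9 with a median of 51.4 in FAD. On restricted feed the range was from 17.8 to 60.8 with a median of 55.5 in FWTMR and from 11.7 to 58.7 with a median of 50.8 in FADMR. Each group but MWT held 1 to 3 libraries far below the rest, so ranges overlapped throughout. The differences were -0.066 (SE 0.12, adjusted p = 0.853) with genotype, -0.14 (SE 0.12, adjusted p = 0.859) with feed and -0.18 (SE 0.12, adjusted p = 0.203) with sex.

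Ddit3 encodes CHOP, a C/EBP factor of the stress response. It ran from 22.2 to 37.6 with a median of 31.8 in MWT and from 24.3 to 39.2 with a median of 32.8 in MAD. With methionine restricted it ran from 24.4 to 36.8 with a median of 28.9 in MWTMR and from 23.9 to 33.8 with a median of 28.1 in MADMR. The male ranges overlapped, with the median highest in MAD and lowest in MADMR. Female levels ran from 27.6 to 40.4 with a median of 32.6 in FWT and from 25.3 to 36.2 with a median of 27.4 in FAD. Under restriction the values ran from 27.7 to 36.7 with a median of 31.99 in FWTMR and from 23.5 to 37.8 with a median of 32.3 in FADMR. The spread within groups was small (SD 0.185 on the log2 scale), and the differences of -0.056 (SE 0.0404, adjusted p = 0.569) with genotype and -0.074 (SE 0.0404, adjusted p = 0.699) with feed were not called. The annotated ends of Ddit3 and Mars overlap by 71 bases on chromosome 10, and whether the authors' counting used strand is not given in the sources used here, so reads there cannot be assigned.

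Trib3, the pseudokinase gene that ATF4 and CHOP induce as feedback, ran from 0.179 to 0.463 with a median of 0.349 in MWT and from 0.207 to 0.591 with a median of 0.255 in MAD. The restricted groups ran from 0.104 to 0.512 with a median of 0.264 in MWTMR and from 0.141 to 0.515 with a median of 0.263 in MADMR. Male mice of the 4 groups overlapped, and the median was lowest in MAD and highest in MWT. Levels in females ran from 0.136 to 0.3702 with a median of 0.314 in FWT and from 0.157 to 0.656 with a median of 0.397 in FAD. Restricted mice ranged from 0.207 to 0.728 with a median of 0.313 in FWTMR and from 0.0648 to 0.575 with a median of 0.342 in FADMR. These lie below the filter of 1 FPKM in every library, and no test was made. Cebpb, which encodes a C/EBP partner, ran over 1.42 to 8.996 FPKM and the Cebpg locus, which encodes another, over 0.1297 to 3.65, with genotype differences of 0.0076 (SE 0.073, adjusted p = 0.979) and 0.16 (SE 0.15, adjusted p = 0.683).

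Nupr1, a small stress-induced nuclear protein gene, ran from 0.792 to 1.65 with a median of 1.16 in MWT and from 0.736 to 1.35 with a median of 0.929 in MAD. Levels on restricted feed ran from 0.679 to 1.18 with a median of 0.925 in MWTMR and from 0.6201 to 2.198 with a median of 0.818 in MADMR. Among males MWT had the highest median and MADMR the lowest, and the ranges overlapped. In females it ran from 0.923 to 1.64 with a median of 1.11 in FWT and from 0.881 to 1.57 with a median of 1.12 in FAD. Mice on restricted feed ranged from 0.884 to 4.18 with a median of 1.06 in FWTMR and from 0.673 to 2.01 with a median of 1.55 in FADMR. The level was higher in females by 0.19 (SE 0.051, adjusted p = 0.001201), with 38 of 42 females above the male median. Markers of meninges, of which 2 of 4 tested were higher in females (6 listed), correlated with Nupr1 within groups (Pearson's r = 0.615, adjusted permutation p = 0.00033; Spearman's rho = 0.63, adjusted p = 0.00035; r = 0.57 without the 2 farthest mice). The meninges markers under the filter, Col1a2 and Slc6a13, were at 0 in no library. With tissue covariates, meninges among them, the sex difference of Nupr1 was 0.066 (adjusted p = 0.196) and the call was lost.

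Of the kinases and phosphatase, Eif2ak4 ran over 7.46 to 14.1 FPKM, and Eif2ak3, not tested, over 0.163 to 0.5596. Ppp1r15a, the stress-induced eIF2 phosphatase subunit gene, had a median of 6.002 FPKM and 1 library at 26.3. With feed, the differences were 0.051 (SE 0.036, adjusted p = 0.804) for Eif2ak4 and -0.058 (SE 0.059, adjusted p = 0.902) for Ppp1r15a, neither called. Ppp1r15a differed by -0.0799 (SE 0.059, adjusted p = 0.574) with genotype and was called as lower only without MAD replicate 11, the library that holds the highest value.

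None of the 4 genes for amino acid synthesis was called in any comparison. Asns (chr6:7675165-7693209) encodes asparagine synthetase and is the classical reporter of this response. Male levels ran from 57.3 to 90.8 with a median of 71.1 in MWT and from 56.02 to 85.3 with a median of 71.2 in MAD. For restricted feed the range was from 60.5 to 88.3 with a median of 72.97 in MWTMR and from 64.5 to 90.8 with a median of 74.2 in MADMR. Of the male groups, MADMR had the highest and MWT the lowest median, with overlapping ranges. Female levels ran from 60.8 to 80.5 with a median of 70.6 in FWT and from 60.5 to 97.6 with a median of 78.3 in FAD. In the restricted groups it ran from 65.1 to 84.3 with a median of 77.8 in FWTMR and from 64.96 to 96.4 with a median of 78.2 in FADMR. Group medians lay between 70.6 in FWT and 78.3 in FAD, and all ranges overlapped. Its interval for feed was -0.018 to 0.12 (0.052, SE 0.035, adjusted p = 0.791), and for genotype -0.028 to 0.11 (adjusted p = 0.6302).

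Phgdh, whose enzyme opens serine synthesis from glycolysis, ran from 90.7 to 132 with a median of 108 in MWT and from 93.3 to 157 with a median of 109 in MAD. On restricted feed the range was from 86.5 to 119 with a median of 102 in MWTMR and from 48.2 to 134 with a median of 105 in MADMR. These 4 ranges overlapped, and medians lay highest in MAD and lowest in MWTMR. Across female groups it ran from 86.2 to 134 with a median of 108 in FWT and from 96.2 to 152 with a median of 111 in FAD. With methionine restricted it ran from 90.2 to 126 with a median of 111 in FWTMR and from 94.8 to 148 with a median of 108 in FADMR. Psat1, the next enzyme of that path, ran from 29.8 to 47.7 with a median of 33.5 in MWT and from 32.2 to 50.9 with a median of 37.2 in MAD. Under restriction the values ran from 30.2 to 45.1 with a median of 34.2 in MWTMR and from 24.7 to 49.6 with a median of 36.3 in MADMR. The male ranges overlapped, with the median highest in MAD and lowest in MWT. For Psat1 in females the range was from 24.7 to 49.4 with a median of 34.1 in FWT and from 22.98 to 38.7 with a median of 35.6 in FAD. The restricted groups ran from 27.8 to 43.9 with a median of 38.5 in FWTMR and from 28.6 to 69.4 with a median of 36.3 in FADMR, with the highest library, 69.4 FPKM, in FADMR. Psph, the last enzyme, ran over 111 to 191 FPKM. Genotype differences were 0.035 (SE 0.0496, adjusted p = 0.808) for Phgdh, 0.072 (SE 0.056, adjusted p = 0.601) for Psat1 and 0.011 (SE 0.032, adjusted p = 0.914) for Psph, none called. With feed they were -0.058, 0.013 and 0.027 (adjusted p of 0.865, 0.988 and 0.921).

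Of the 8 amino acid carriers, none was called with genotype or feed. Lower in females were Slc38a2 and the Slc7a3 locus, whose values also hold Snx12. Slc3a2 (chr19:8706882-8723369) encodes the heavy chain that brings Slc7a5 and Slc7a11 to the cell surface. It falls outside the rule for genes given in full and is given because its genotype by sex value was the smallest p of any member in an interaction, which was seen first. In males it ran from 19.9 to 56.2 with a median of 30.2 in MWT and from 22.3 to 38.6 with a median of 28.9 in MAD. Restricted mice ranged from 26.6 to 50.3 with a median of 32.3 in MWTMR and from 22.7 to 59.6 with a median of 28.2 in MADMR. Male mice of the 4 groups overlapped, and the median was lowest in MADMR and highest in MWTMR. In females it ran from 21.1 to 28.7 with a median of 24.9 in FWT and from 18.97 to 55.7 with a median of 32.2 in FAD. Levels on restricted feed ran from 16.1 to 31.3 with a median of 24.9 in FWTMR and from 24.1 to 58.2 with a median of 28.1 in FADMR. In FAD 4 mice stood between 44.7 and 55.7 FPKM, while the highest FWT mouse was at 28.7. In males the 3 highest MWT mice stood between 47.7 and 56.2, the highest MAD mouse at 38.6 and 1 MADMR mouse at 59.6. The AD minus control difference was 0.47 (SE 0.15, adjusted p = 0.172) in females and -0.20 (SE 0.15, adjusted p = 0.859) in males on standard feed, and 0.26 and -0.18 on restricted feed. The test of the difference between the sexes gave 0.55 (SE 0.15, adjusted p = 0.0571), which misses the threshold. It passed without the 3 libraries of lowest correlation (0.56, adjusted p = 0.0249), with array weights (0.53, adjusted p = 0.0169) and with tissue covariates (0.54, adjusted p = 0.0409). Calls over all rows numbered 1114, 2242 and 700 in these settings, against 15 in the fit used throughout. Apart from single libraries left out, 7 of 10 alternative settings called no member for genotype by sex.

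Slc7a5, the light chain that carries large neutral amino acids including methionine and is dense at brain endothelium, ran from 67.9 to 108 with a median of 87.9 in MWT and from 66.6 to 112 with a median of 85.2 in MAD. Mice on restricted feed ranged from 4.78 to 129 with a median of 89.2 in MWTMR and from 17.8 to 104 with a median of 83.3 in MADMR. Among males MWTMR had the highest median and MADMR the lowest, and the ranges overlapped. In females it ran from 2.101 to 98.2 with a median of 85.03 in FWT and from 73.8 to 114 with a median of 94.9 in FAD. For restricted feed the range was from 1.91 to 109 with a median of 94.1 in FWTMR and from 25.4 to 118 with a median of 96.8 in FADMR. The genotype difference was 0.45 (SE 0.22, adjusted p = 0.356), not called, with 5 control and 2 AD libraries far below the rest. Computed from group medians instead of means it was 0.013. With feed the difference was -0.14 from means (adjusted p = 0.948) and 0.041 from medians.

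Slc7a11, the cystine and glutamate exchanger, ran from 2.79 to 6.07 with a median of 4.74 in MWT and from 0.232 to 5.36 with a median of 4.39 in MAD. In the restricted groups it ran from 3.27 to 6.14 with a median of 4.201 in MWTMR and from 2.69 to 5.97 with a median of 3.798 in MADMR. Of the male groups, MWT had the highest and MADMR the lowest median, with overlapping ranges. Its female range was from 2.37 to 5.9 with a median of 3.897 in FWT and from 3.002 to 5.21 with a median of 4.14 in FAD. On restricted feed the range was from 2.03 to 8.69 with a median of 3.605 in FWTMR and from 3.37 to 6.04 with a median of 4.65 in FADMR. The lowest library, at 0.232 FPKM, was in MAD and the highest, at 8.69, in FWTMR. The averaged differences were -0.0029 (SE 0.0803, adjusted p = 0.993) with genotype and -0.0095 (SE 0.0803, adjusted p = 0.994) with feed. Slc38a2, a carrier of small neutral amino acids including methionine, ran from 22.8 to 47.2 with a median of 34.3 in MWT and from 29.6 to 56.4 with a median of 39.6 in MAD. With methionine restricted it ran from 26.2 to 46.1 with a median of 39.5 in MWTMR and from 34.1 to 50.1 with a median of 41.97 in MADMR. These 4 ranges overlapped, and medians lay highest in MADMR and lowest in MWT. For the females the values ran from 26.9 to 46.5 with a median of 35.8 in FWT and from 21.6 to 41.7 with a median of 33.6 in FAD. Under restriction the values ran from 28.5 to 43.4 with a median of 33.98 in FWTMR and from 32.7 to 46.04 with a median of 37.4 in FADMR. It was lower in females, with a difference of -0.13 (SE 0.0501, adjusted p = 0.0292), and lost that call on FPKM as deposited (-0.11, adjusted p = 0.105), with array weights (adjusted p = 0.055) and without the 3 libraries of lowest correlation (adjusted p = 0.0575). With feed it differed by 0.11 (SE 0.0501, adjusted p = 0.585) and with genotype in males on standard feed by 0.31 (SE 0.098, adjusted p = 0.368), neither called.

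The Slc7a3 locus, a carrier of cationic amino acids on chromosome X, ran from 32.1 to 51.5 with a median of 37.8 in MWT and from 26.3 to 53.05 with a median of 35.99 in MAD. The restricted groups ran from 26.6 to 50.2 with a median of 37.1 in MWTMR and from 26.4 to 46.9 with a median of 39.9 in MADMR. The male ranges overlapped, with the median highest in MADMR and lowest in MAD. Among female mice it ran from 23 to 43.3 with a median of 31.7 in FWT and from 25.1 to 42.3 with a median of 34.5 in FAD. Restricted mice ranged from 26.4 to 38.3 with a median of 32.9 in FWTMR and from 26.3 to 46.4 with a median of 34.05 in FADMR. Females were lower, with a difference of -0.19 (SE 0.055, adjusted p = 0.00289), and 35 of 42 females stood below the male median. Slc7a1, another carrier of cationic amino acids, had a median of 12.6 FPKM, the carrier of serine and alanine Slc1a4 one of 40.2, and the glycine carrier Slc6a9 one of 43, with genotype differences of 0.20, 0.068 and -0.20 (adjusted p of 0.63, 0.766 and 0.739).

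The 12 synthetase genes, each of which charges tRNA with its amino acid, included the 3 members with the smallest within-group SD, Eprs, Nars and Aars. None was called with genotype or feed, and 3 were called with sex. Nars, for asparagine, ran from 166 to 191 with a median of 176 in MWT and from 139 to 196 with a median of 179 in MAD. Levels on restricted feed ran from 155 to 192 with a median of 174 in MWTMR and from 153 to 187 with a median of 178 in MADMR. Male mice of the 4 groups overlapped, and the median was lowest in MWTMR and highest in MAD. In females it ran from 139 to 162 with a median of 149.7 in FWT and from 132 to 171 with a median of 150.5 in FAD. Mice on restricted feed ranged from 128 to 158 with a median of 151 in FWTMR and from 129.8 to 176 with a median of 151 in FADMR. It was lower in females, with a difference of -0.21 (SE 0.024, adjusted p = 1.44e-10) and 41 of 42 females below the male median. Iars, for isoleucine, ran from 73.5 to 99.1 with a median of 85.7 in MWT and from 70.03 to 112 with a median of 88.4 in MAD. For restricted feed the range was from 78.5 to 103 with a median of 97.3 in MWTMR and from 65.1 to 123 with a median of 83.2 in MADMR. Among males MWTMR had the highest median and MADMR the lowest, and the ranges overlapped. Female Iars levels ran from 68.4 to 89.9 with a median of 74.9 in FWT and from 65.2 to 88.1 with a median of 80.4 in FAD. In the restricted groups it ran from 67.8 to 92.3 with a median of 80.9 in FWTMR and from 68.3 to 95.02 with a median of 81.8 in FADMR. The female level was again lower, with a difference of -0.18 (SE 0.035, adjusted p = 1.83e-05). Cars, for cysteine, ran from 43.03 to 61.1 with a median of 52.97 in MWT and from 42.1 to 59.6 with a median of 48.9 in MAD. On restricted feed the range was from 42.7 to 57.4 with a median of 51.6 in MWTMR and from 40.7 to 93.02 with a median of 48.2 in MADMR. Of the male groups, MWT had the highest and MADMR the lowest median, with overlapping ranges. Female Cars levels ran from 52.03 to 63.1 with a median of 55.9 in FWT and from 46.1 to 81.98 with a median of 53.6 in FAD. With methionine restricted it ran from 53.4 to 66.8 with a median of 57.2 in FWTMR and from 41.5 to 61.3 with a median of 57.9 in FADMR. Cars was higher in females by 0.15 (SE 0.039, adjusted p = 9.36e-04). Within groups, too, these 3 genes followed how many rows reached 1 FPKM, a count that differs between the sexes. Nars and Iars were lower in libraries with more such rows (Pearson's r = -0.71 and -0.609), and Cars was higher (r = 0.465). The adjusted permutation p were 0.00033, 0.00033 and 0.0011 for r and 0.00035, 0.00035 and 0.0088 for Spearman's rho (-0.697, -0.677 and 0.387). Without the 2 farthest mice r was -0.698, -0.708 and 0.438. What this has to do with the sex differences was not tested.

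Aars, for alanine, and Lars, for leucine, had the smallest genotype p after Sesn2. Aars ran from 7.88 to 11.4 with a median of 9.48 in MWT and from 8.13 to 11.2 with a median of 9.68 in MAD. Under restriction the values ran from 7.43 to 10.6 with a median of 9.46 in MWTMR and from 8.15 to 11 with a median of 9.302 in MADMR. These 4 ranges overlapped, and medians lay highest in MAD and lowest in MADMR. In females Aars ran from 7.22 to 9.897 with a median of 8.98 in FWT and from 8.01 to 11.3 with a median of 10.04 in FAD. The restricted groups ran from 8.41 to 9.96 with a median of 9.13 in FWTMR and from 8.88 to 10.4 with a median of 9.69 in FADMR. The ranges of Lars were from 276 to 379 with a median of 302 in MWT and from 289.9 to 379 with a median of 324 in MAD. Restricted mice ranged from 306 to 387 with a median of 332 in MWTMR and from 301 to 423 with a median of 343 in MADMR. The male ranges overlapped, with the median highest in MADMR and lowest in MWT. For Lars in females they were from 289 to 337 with a median of 310.1 in FWT and from 286 to 377 with a median of 334 in FAD. Levels on restricted feed ran from 269.9 to 328 with a median of 306 in FWTMR and from 248 to 352 with a median of 322 in FADMR. The averaged differences of 0.065 (SE 0.026, adjusted p = 0.217) for Aars and 0.057 (SE 0.027, adjusted p = 0.311) for Lars were not called. In females on standard feed Aars differed by 0.15 (SE 0.052, adjusted p = 0.209), a value that passed the threshold without the 3 libraries of lowest correlation or with array weights. Calls over all rows numbered 743 and 1347 in these settings, against 91 in the fit used throughout. The other 7, Eprs, Gars, Mars, Sars, Tars, Wars and Yars, had averaged feed differences between -0.038 and 0.038 and genotype differences between -0.0298 and 0.079, none called. The enzyme of Mars charges tRNA with methionine, the restricted amino acid. The Mars locus, whose values also hold Mbd6, was at 4.94 to 9.53 FPKM. Its feed difference was -0.0014 (SE 0.038, adjusted p = 0.998), with an interval of -0.077 to 0.074.

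In 5 further lists, none of the genes was called in any comparison but sex: 14 of 14 listed genes of eIF2, its kinases and its exchange factor were tested, 14 of 18 other ATF4 targets and partners, 21 of 21 genes of amino acid sensing by mTORC1, 8 of 8 further cytosolic synthetases and 17 of 17 mitochondrial synthetases. With genotype averaged, the unadjusted limma p was under 0.05 for 4, 3, 3, 0 and 3 of them, where 14.1% of all rows stood, and with feed averaged for 0, 0, 3, 0 and 4, where 7.66% of all rows stood. The smallest genotype p were those of Ppp1r15b, the constitutive eIF2 phosphatase subunit in a locus with Pik3c2b, at 0.088 (SE 0.026, adjusted p = 0.05501), and Aldh1l2, a mitochondrial folate enzyme, at 0.13 (SE 0.042, adjusted p = 0.0783). With feed the smallest were those of the mitochondrial synthetase genes Hars2, at 0.11 (SE 0.031, adjusted p = 0.148), and Mars2, at -0.091 (SE 0.026, adjusted p = 0.156). With sex, 4 of the eIF2 list were higher and 5 lower in females, 2 and 1 of the other targets, 4 and 10 of the mTORC1 list, 2 and 3 of the cytosolic and 4 and 5 of the mitochondrial synthetases, beside 31.6% higher and 18.7% lower over all rows. The smallest sex p were those of Rptor, the mTORC1 scaffold, and the cytosolic synthetase gene Dars, both lower in females. Their differences were -0.17 (SE 0.023, adjusted p = 1.30e-08) and -0.20 (SE 0.028, adjusted p = 3.545e-08). Eif2s3x, a subunit of eIF2 on chromosome X that escapes X inactivation, was not chosen by its p. It was higher in females by 0.43 (SE 0.088, adjusted p = 4.76e-05).

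Several members had libraries far below their median. A rule chosen after the values were seen marked levels under 50% of the gene's own median over the 85 mice. By it, 22 of the 35 members had no such library, 6 had 1 to 3 and 7 had 4 or more. The rule was applied to members only, so the share over all rows is not known. The Atf4 locus was at 11.7 to 25.7 FPKM in 11 libraries and 38.9 to 73.4 in the other 74. Slc7a5 was at 1.91 to 25.4 FPKM in 7 libraries and 66.6 to 129 in the other 78. For Slc7a1 the levels were 0.0803 to 0.253 FPKM in 4 libraries and 9.63 to 20.01 in the other 81, a gap with no value between. Slc6a9 had 29 such libraries, from 5.38 to 21.05 FPKM, and its other libraries began at 22.8. The Cebpg locus had 27, from 0.1297 to 1.29 FPKM, and its other libraries began at 1.37. For both, the cut fell between close values and not in a wide gap. Wars had 5 such libraries and Slc1a4 had 4.

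Over the 7 members together, low libraries occurred in both genotypes, on both feeds and in both sexes, but the 4 of Slc7a1 were all from males (1 MWT, 1 MAD and 2 MWTMR). For Atf4 they numbered 6 in AD and 5 in control mice, for Slc6a9 18 and 11, for Cebpg 13 and 14. They were not the same libraries from gene to gene: 28 libraries were low for no member, and 1 library, MWTMR replicate 3, was low for 4 members, the most of any. The part of these libraries in the group differences of the 7 genes was not tested beyond the medians given for Slc7a5. The origin of the low values was not tested.

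**Figure D4:**
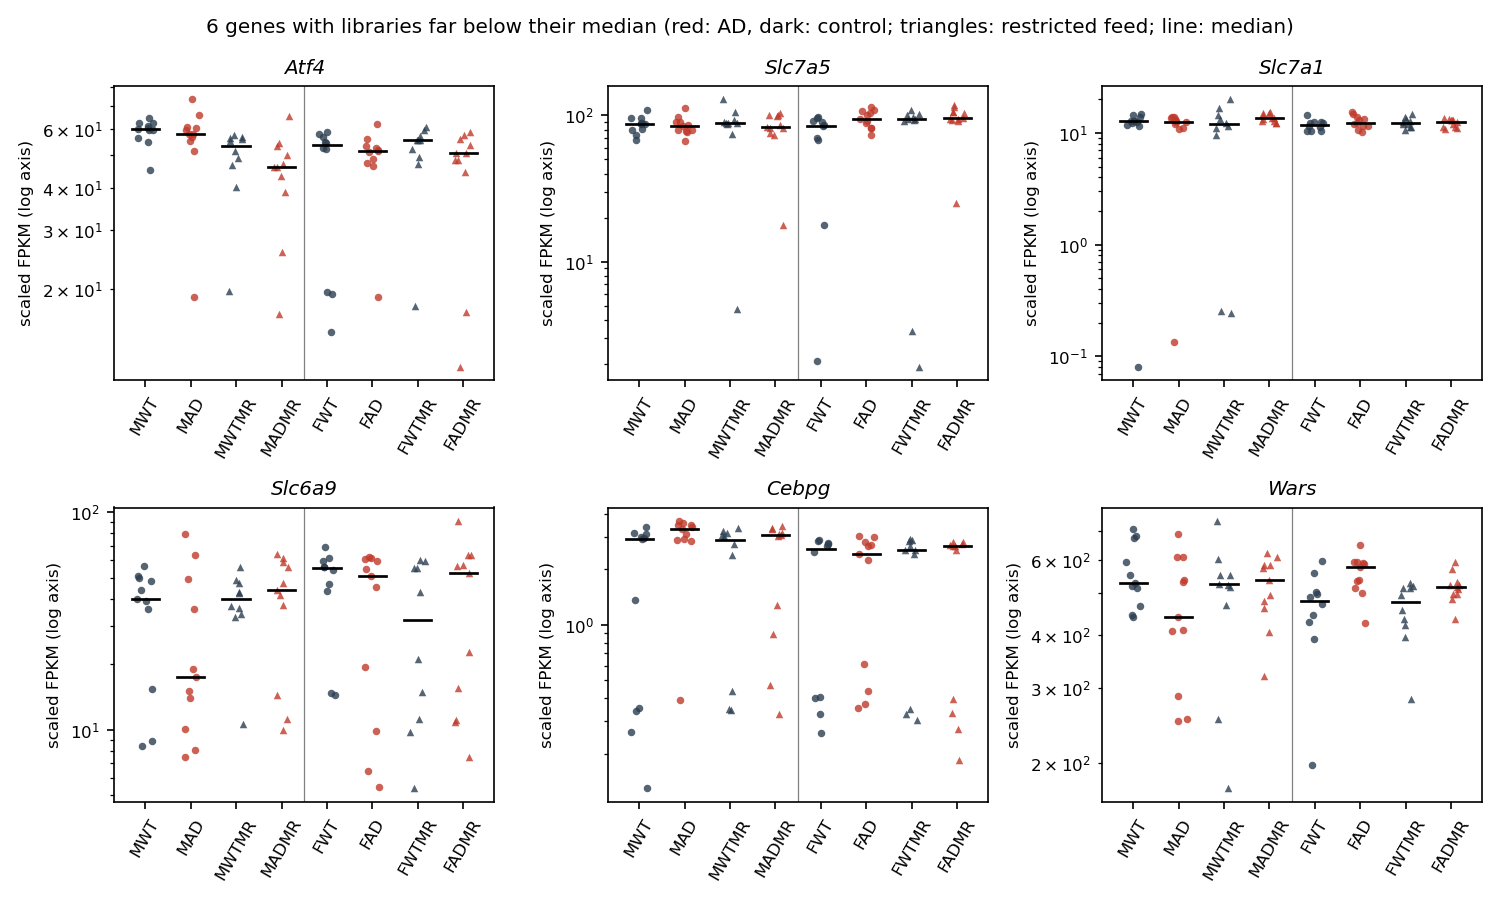
Scaled FPKM (log axis) of Atf4, Slc7a5, Slc7a1, Slc6a9, Cebpg and Wars in each mouse of the 8 groups, males left of the grey line, AD in red, restricted feed as triangles, with the median as a line. Slc7a1 lies at 9.64 to 20.01 in 81 libraries and at 0.0803 to 0.253 in 4, and low points of the other genes stand in groups of both genotypes.

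Some pairs of members varied together from mouse to mouse within groups. Correlations were taken over the 85 mice on residuals from the 8 group means, with permutation within groups and p adjusted over all 595 pairs of tested members. They are given for the 28 members with fewer than 4 such low libraries, whose 378 pairs had a median Pearson's r of 0.062. For 56 of these pairs r and Spearman's rho were both positive with adjusted p under 0.05, and for 10 pairs both were negative. Pairs of other rows were not correlated, so whether these counts are particular to the members is not known.

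The highest correlations joined Asns to synthetase genes and the serine genes to each other. Asns and Nars stood at r = 0.76, rho = 0.746, Aars and Asns at r = 0.757, rho = 0.742, Phgdh and Psat1 at r = 0.721, rho = 0.789, Gars and Nars at r = 0.688, rho = 0.679, and Asns and Iars at r = 0.644, rho = 0.625. For each of these 5, the adjusted permutation p was 0.00035 for r and 0.00031 for rho, from the smallest p that 100000 resamples can give (1e-05). Without the 2 farthest mice r was 0.722, 0.723, 0.725, 0.696 and 0.603. In males r was 0.721, 0.831, 0.727, 0.75 and 0.625, and in females 0.808, 0.656, 0.785, 0.626 and 0.668.

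The synthetase pairs share a relation to how many rows reach 1 FPKM. Asns was lower in libraries with more such rows (r = -0.796, rho = -0.769, adjusted permutation p = 0.00033 and 0.00035, r = -0.766 without the 2 farthest mice), and so were Aars (r = -0.546) and Gars (r = -0.443), while Phgdh stood at r = -0.116 and Psat1 at -0.145. With that number regressed out, r was 0.457 for Asns and Nars, 0.636 for Aars and Asns, 0.717 for Phgdh and Psat1, 0.591 for Gars and Nars and 0.332 for Asns and Iars.

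Phgdh and Psat1 also followed the oligodendrocyte markers, 6 of 6 tested, whose sum ran from 2385 to 13440 scaled FPKM over the 85 libraries with none at 0. Psat1 correlated with their mean at r = 0.733 (rho = 0.745, r = 0.725 without the 2 farthest mice) and Phgdh at r = 0.562 (rho = 0.635, r = 0.543), each with an adjusted permutation p of 0.00033 for r and 0.00035 for rho over 560 relations of members with markers and row number. Cebpb correlated with the mean of the dentate gyrus markers, of which 1 was at 0 in at least 1 library (r = 0.579, rho = 0.559, r = 0.665 without the 2 farthest mice), and Chac1 ran against them (r = -0.437, rho = -0.439, r = -0.392). The adjusted permutation p for r were 0.00033 and 0.0016, and those for rho 0.00035 and 0.0026. The lowest pairs of members were Eprs and Phgdh (r = -0.49, rho = -0.312), Cars and Phgdh (r = -0.483, rho = -0.295), Cars and Psat1 (r = -0.418, rho = -0.319), Aars and Ddit3 (r = -0.4, rho = -0.33) and Cars and Slc38a2 (r = -0.387, rho = -0.39). Of these, Eprs and Phgdh stood at r = -0.206 without the 2 farthest mice and Cars and Phgdh at -0.24, so those 2 relations rest in large part on those mice. Their adjusted permutation p were 0.028 and 0.012 for r and 0.042 and 0.05 for rho, and those of the other 3 pairs 0.0031, 0.0037 and 0.0031 for r and 0.029, 0.029 and 0.0062 for rho.

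**Figure D5:**
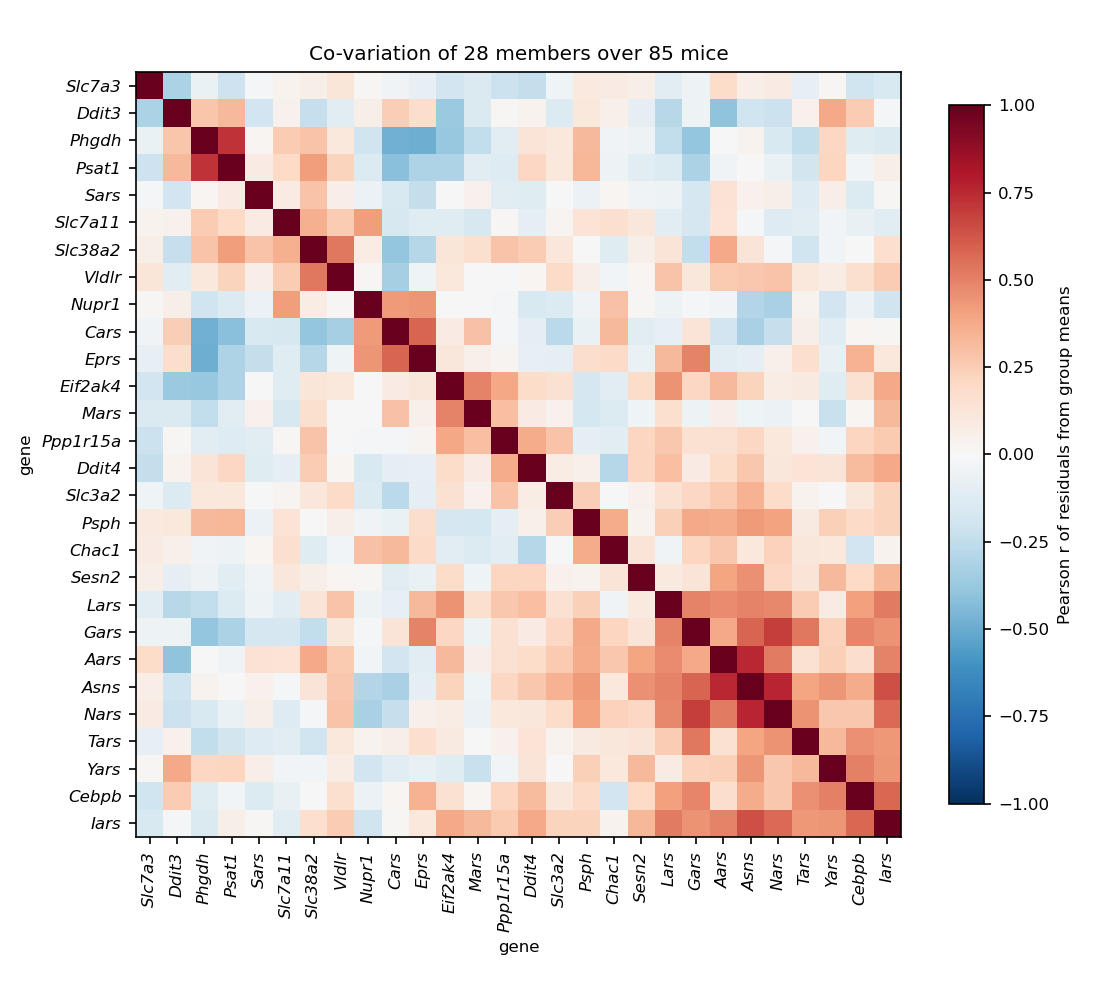
Pearson's r of residuals from the group means over 85 mice for each pair of the 28 members with fewer than 4 such low libraries, ordered by clustering, on a scale from -1 (blue) to 1 (red). The red block joins Asns with synthetase genes such as Nars (r = 0.76) and Aars (r = 0.757), and Phgdh pairs with Psat1 (r = 0.721).

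Pairs whose promoter windows both held the response element letters had a median r of 0.158 (45 pairs, -0.296 to 0.757), pairs with 1 such window one of 0.064 (130 pairs) and pairs with neither one of 0.068 (78 pairs, -0.49 to 0.721). Pairs share genes and are not independent, so this is a description with no test. The pairs with both windows include those among Asns, Aars, Gars and Iars, which were each lower in libraries with more rows at 1 FPKM. The number of such rows was not regressed out of these medians, and its part in them was not tested.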

How the data were processed

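Total RNA of the hippocampus of 85 mice was extracted with phenol and chloroform and sequenced on the BGI-500 platform, per the labels' protocols. The submitters' processing notes name Trimmomatic 0.38, HISAT2, StringTie 1.3.4d and the build GRCm38.p6. The authors deposited 1 table of FPKM for 56090 rows, each column of which was matched to a sample by its name (0 columns were left unmatched). Whether strand was used is not given in the sources used here.

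Rows of equal symbol were summed to 53877. Libraries were scaled by the median of ratios over 12989 rows at 1 FPKM or more in every library (factors 0.905 to 1.12), because FPKM per library depend on a few abundant transcripts. The 21294 rows at 1 FPKM or more in at least 10 libraries were tested as log2(scaled FPKM + 1), a log2 scale computed here from the deposited FPKM, which understates changes of low genes. limma 3.58.1 (R 4.3.3, statmod 1.5.0, trend and robust prior) was fitted to the 8 group means with 77 residual degrees of freedom and 14 contrasts, with Benjamini-Hochberg adjustment within each contrast and a threshold of 0.05. The fit and the correlations (Python 3.11.15, numpy 2.4.6, pandas 2.3.3, scipy 1.17.1) were tested on simulated data. The full strain name of the AD mice is not reported here. Litter, cage and batch are not stated in the labels, so p-values measure the spread between these mice.

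The members and lists were chosen with earlier results of these data known. Given in full were the core genes (Atf4, Asns, Sesn2, Ddit4, Chac1, Trib3, Ddit3, Psat1, Phgdh, Slc7a11, Slc7a5), every member called, the 3 members of smallest p in each averaged comparison, and the 5 highest and 5 lowest pair correlations. From the other lists the 2 genes of smallest p in each averaged comparison were given by value. Eif2s3x was given outside this rule, and the other list genes called with sex were only counted. Alternatives changed the scaling, pseudocount, filter, joined loci, prior, weights, block, covariates, samples in the fit and single libraries.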

Additional observations from a re-analysis of the deposited data

Results flagged for a closer look

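Within groups of 10 mice, 14 of 105 combinations of member and group held a library whose gap to the nearest other exceeded the 95% critical value of Dixon's test, where chance gives about 1 in 20, or 5.25. Groups of 11 were not examined. Values are scaled FPKM, and no interaction passed its test.

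In males, MWTMR replicate 3 was lowest in its group for Atf4 (19.6, others 40.2 to 57.3), Slc7a5 (4.78, others 74.8 to 129) and Slc6a9 (10.6, others 33.0 to 56.1). MWTMR replicate 10 was lowest for Slc1a4 (15.9, others 32.7 to 68.1). MWTMR replicate 11 was lowest for Aars (7.43, others 8.84 to 10.6) and for Nars (155, others 172 to 192).

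In females, FWT replicate 3 was lowest for Slc7a5 (2.1, others 17.8 to 98.2) and for Wars (197, others 391 to 597). FWTMR replicate 5, among the 3 libraries of lowest correlation, was highest for Slc7a11 (8.69, others 2.03 to 4.03) and Nupr1 (4.18, others 0.884 to 1.6) and lowest for Slc3a2 (16.1, others 22.3 to 31.3). The lowest library was FWTMR replicate 4 for Atf4 (17.8, others 47.2 to 60.7), FWTMR replicate 2 for Wars (283, others 396 to 528) and FWTMR replicate 7 for Tars (6.43, others 16.4 to 18.5).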

How the results depend on the processing

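For genotype averaged over sex and feed, the count of members called went from 1 to 0 with the replicate block (Sesn2 -0.21, adjusted p = 0.0532), with tissue covariates (0 called, Sesn2 -0.16, adjusted p = 0.255) and without the 3 libraries of lowest correlation (0 called, -0.19, adjusted p = 0.0555), a choice made after seeing the data. Leaving out 1 library at a time gave 1 to 2 members, with Sesn2 between -0.23 and -0.20 (adjusted p of 0.00981 to 0.0396), and the second member, Ppp1r15a, was called only without MAD replicate 11, as it was for females on restricted feed (0 to 1 member). For females on standard feed 2 members, Slc3a2 and Aars, were called with array weights, without the 3 libraries and without FAD replicate 5 (range 0 to 2). Calls over all rows there numbered 1347, 743 and 619, against 91 in the fit used throughout. For genotype by sex 1 member, Slc3a2, was called with array weights, with covariates and without the 3 libraries, and also without any 1 of MWT replicates 2, 6 and 11, MAD replicates 8 and 11, MWTMR replicate 11, MADMR replicate 6, FWT replicate 7, FAD replicate 5 or FWTMR replicates 9 and 10 (range 0 to 1, adjusted p of 0.0165 to 0.0943). For genotype by sex, calls over all rows rose from 15 to 2242 with array weights, 700 with covariates and 1114 without the 3 libraries. Without any 1 of the single libraries named for it, they numbered 126 to 1591. The cause of these changes was not tested. With sex averaged, 7 to 10 members were called when 1 library was left out, and no feed comparison called a member under any alternative.

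Differences near 0 changed sign. FPKM as deposited gave -0.0049 for Chac1 with genotype and 9e-04 for Slc7a11 with feed, and a pseudocount of 0.1 gave 0.012 for the latter. Array weights gave 0.028 for Atf4, -0.0083 for Chac1 and 3e-04 for Slc7a11 with genotype, and -9e-04 for Psat1 with feed. Covariates gave -0.0044 for Phgdh with genotype and -0.078 for Psat1 with feed, and leaving out the 3 libraries gave 0.033 for Slc7a11 with genotype and -0.011 for Psat1 with feed. With 1 library left out, Chac1 with genotype ran from -0.016 to 0.014, Slc7a11 with genotype from -0.019 to 0.046 and with feed from -0.058 to 0.0064, and Psat1 with feed from -0.0067 to 0.025.

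Replicate numbers did not pair the mice: residuals of same-numbered mice of different groups correlated at -0.384 to 0.384 (median -0.00436), with 33 of 281 pairs over 0.1. For mice of different numbers the range was -0.518 to 0.529 (median -0.000465), with 400 of 2879 pairs over 0.1. The replicate block gave 0.0051 for Slc7a11 with feed. Under it Ddit4 differed by 0.19 with sex (adjusted p = 0.0738), so that this call was lost there too. Depth is unknown, so the precision of single levels cannot be given, and members with low libraries have wide intervals.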
